A study of Mus musculus with 8 samples.

Results

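Hox genes encode the homeodomain transcription factors that give cells of the embryo their position along the head to tail axis. All 39 protein-coding genes whose symbol is Hox followed by a cluster letter from a to d and a number were taken from the 55401 genes counted, 11 in the Hoxa cluster, 10 in Hoxb, 9 in Hoxc and 9 in Hoxd. Total RNA of mouse embryonic stem cells (ESCs) was sequenced in 8 libraries, which were 2 controls, 3 labelled Zzz3 auxin and 3 labelled Yeats2 auxin. ZZZ3 and YEATS2 belong to ATAC (Ada-two-A-containing), a coactivator complex which acetylates histones. In the auxin groups the named protein carried an auxin-inducible degron (AID), a tag through which auxin leads to its degradation, and auxin was given at 500 µM for 24 h. All cells were grown on gelatin in serum with leukemia inhibitory factor and 2 kinase inhibitors (2i), with G418 to keep the Tir1 ligase on which the degron depends. The study sets auxin against DMSO within each degron line, whereas the 2 control libraries are labelled with neither a line nor a treatment and were used for both auxin groups, so that depletion, auxin and line cannot be told apart here. The study's methods describe separate cultures for the labelling of new RNA and similar conditions for this RNA-seq, but the labels do not tie the libraries to cultures, and P values may then measure only a technical spread.

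In mammals the genes lie in 4 clusters and fall into 13 paralog groups, numbered from the 3' to the 5' end of a cluster. Genes of low number are switched on early and are active anterior in the embryo, and genes of high number later and posterior. In ESCs the clusters are known as domains held silent by Polycomb complexes while they also carry an activating mark at their promoters. Retinoic acid switches on the 3' genes first, Trithorax proteins keep active Hox genes on, and TALE homeodomain proteins bind DNA together with Hox proteins.

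The libraries held 14315120 (Zzz3 auxin replicate 3) to 27884704 reads within genes. Counts were scaled to CPM (reads per 1000000 assigned reads, with library sizes corrected by edgeR's TMM method), and 1 read was worth 0.0362 to 0.0669 CPM. All 10 ESC markers examined had reads in every library and reached 1 CPM in at least 1, with a summed level of 4660 to 5520 CPM per library. The 8 neuroectoderm markers summed to 70.9 and 87.1 CPM in the controls, 96.9 to 123 CPM in Zzz3 auxin and 88.7 to 107 CPM in Yeats2 auxin, with every auxin library above both controls, and their part in the results was not tested. Of these 8 markers, 3 stayed under 1 CPM in every library and 1 was called by the rule given below. The 10 fibroblast markers summed to 5.33 to 6.3 CPM in the controls, 6.96 to 10.2 CPM in Zzz3 auxin and 6.55 to 6.77 CPM in Yeats2 auxin, with Dcn at 0 reads in every library, the 9 mesoderm markers to 12.7 to 23.2 CPM and the 8 endoderm markers to 2.14 to 3.55 CPM. Zzz3 mRNA was at 186 and 182 CPM in control cells and at 77.5, 96.9 and 112 CPM in Zzz3 auxin, while Yeats2 mRNA was at 90.9 and 95.8 CPM in the controls and at 77.3, 103 and 43.7 CPM in Yeats2 auxin. The degron acts on the protein, so these mRNA levels do not check the depletion.

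The Hox genes were close to silent in all groups. Reads of all 39 genes together came to 19.7 to 34.2 CPM, and Hoxc13 alone held 30.02% of them. A count of 0 allows up to 3 reads, and a gene was taken as above this detection floor in a group when every library of the group had more than 3 reads. Of the 39 genes, 12 were above the floor in all 3 groups, among them Hoxa7, Hoxb9, Hoxb13, Hoxc4, Hoxc5, Hoxc10, Hoxc11, Hoxc12, Hoxc13, Hoxd8 and Hoxd13. Hoxc9 was above it in the controls and in Zzz3 auxin, Hoxa9 in the controls, and Hoxc6 and Hoxc8 in Zzz3 auxin. The other 23 genes were above the floor in no group. The rule is easier to meet with 2 libraries than with 3, and 3 reads stood for 0.109 to 0.201 CPM by depth. Hoxa9 failed it through Zzz3 auxin replicate 2 (2 reads) and Yeats2 auxin replicate 3 (3 reads). Its mean was 0.212 CPM for control, 0.267 CPM for Zzz3 auxin and 0.228 CPM for Yeats2 auxin. Failing the floor thus does not show a loss of its RNA, and counts this low cannot show that there was none. Hoxb2 and Hoxd11 had 0 reads in all 8 libraries, and 17 genes, these included, never exceeded 3 reads in a library.

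Detection differed between clusters. In the Hoxc cluster, which has no paralog of groups 1 to 3, each of the 9 genes was above the floor in at least 1 group, against 3 of 11 in Hoxa, 2 of 10 in Hoxb and 2 of 9 in Hoxd. In all 3 groups it was 6 of 9 in Hoxc, against 2 of 11, 2 of 10 and 2 of 9. The Hoxc cluster summed to 11 to 20.4 CPM per library, Hoxa to 3.4 to 5.58 CPM, Hoxb to 3.91 to 5.42 CPM and Hoxd to 1.2 to 3.65 CPM. The range of Hoxc did not overlap with that of any other cluster. Within Hoxb, Hoxc and Hoxd the gene with the most reads was of group 9 or 13, Hoxb9 (64.05% of the cluster's reads), Hoxc13 (53.72%) and Hoxd13 (47.99%).

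**Figure D1:**
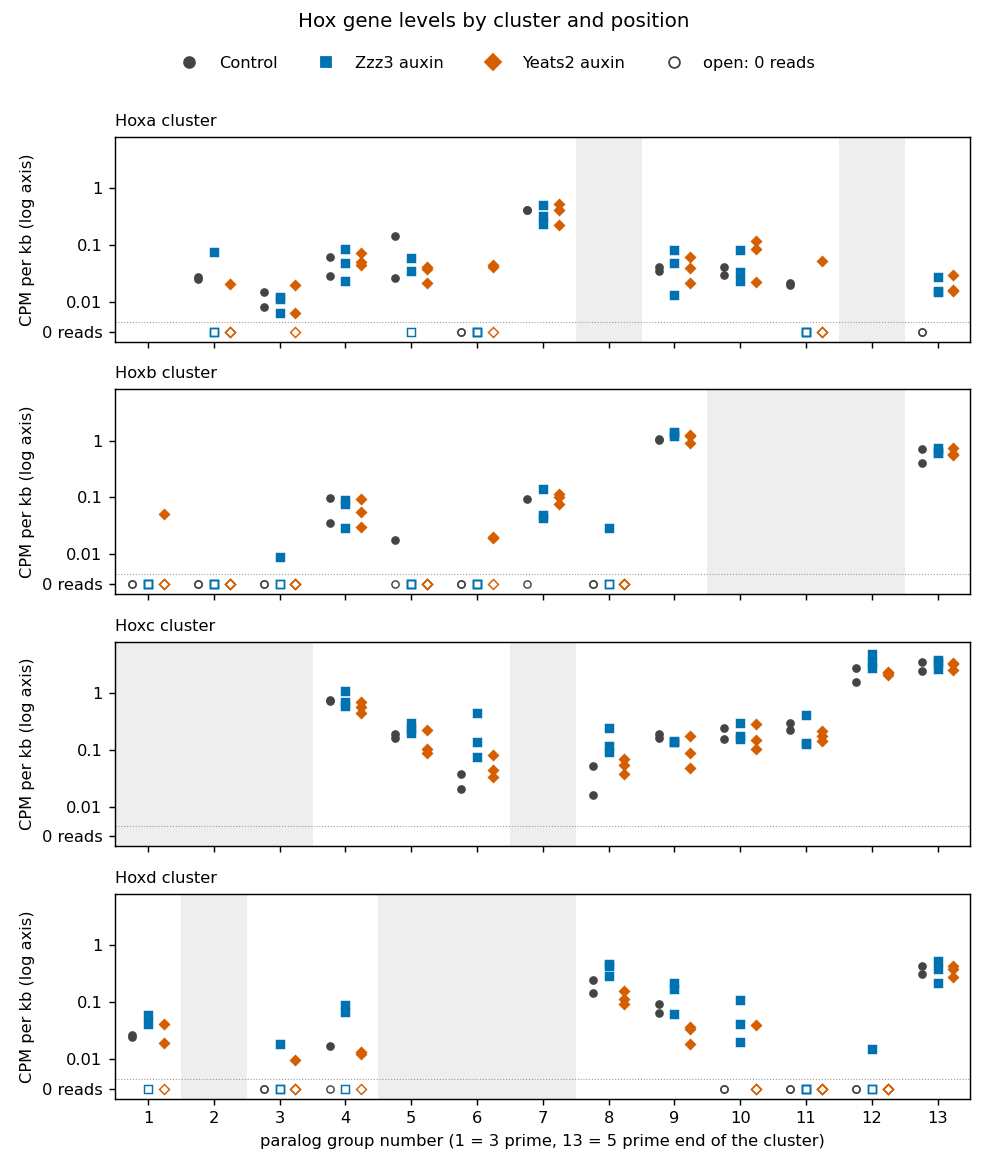
Level of 38 Hox genes in every library, as CPM per kb of exon on a log axis, against the paralog group number, with 1 panel per cluster and grey where the cluster has no gene. Filled points are libraries with reads, open points at the bottom are libraries with 0 reads, and the tested genes, among them Hoxc12, Hoxc13 and Hoxb9 at the top, stand above the rest in most libraries.

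Levels of different genes were compared per kb of merged exon length. Hoxc13 and Hoxc12, the 5'-most genes of their cluster, ranked highest. Hoxc13, known for its part in hair formation, lies at chr15:102921103-102928814 (GRCm38, plus strand). It was at 8.59 and 6.08 CPM in the controls, 9.55, 8.76 and 6.63 CPM in Zzz3 auxin and 7.93, 6.33 and 8.39 CPM in Yeats2 auxin, given here and below in the order of the replicate numbers. Per kb this was 2.47 to 3.88 CPM over the 8 libraries. The 3 groups overlapped.

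Its neighbour Hoxc12 was at 1.63 and 2.86 CPM in the controls, 3.61, 2.82 and 5.02 CPM in Zzz3 auxin and 2.28, 2.17 and 2.41 CPM in Yeats2 auxin. Per kb this was 1.58 to 4.87 CPM, a range that overlapped with that of Hoxc13. Zzz3 auxin replicate 3 was the highest and control replicate 1 the lowest library. Hoxc12 is also the tested Hox gene richest in G and C (62.27%), with 1031 bp of merged exon. At its GC content and exon length, the trends on both over all genes together came to 0.6 (log2) in Zzz3 auxin replicate 3 and -0.49 in control replicate 1.

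Hoxb9, which helps to shape the thoracic skeleton, was at 2.71 and 2.63 CPM in the controls, 3.07, 3.59 and 3.55 CPM in Zzz3 auxin and 3.09, 2.35 and 3.28 CPM in Yeats2 auxin, or 0.91 to 1.4 CPM per kb over all libraries. Both controls lay below every Zzz3 auxin library, whereas Yeats2 auxin overlapped with either group.

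Further genes among the highest per kb were Hoxc4, Hoxb13, Hoxa7, Hoxd13, Hoxd8 and Hoxc11. Hoxc4 was at 1.92 and 1.86 CPM in the controls, 2.76, 1.76 and 1.54 CPM in Zzz3 auxin and 1.47, 1.12 and 1.78 CPM in Yeats2 auxin. Hoxb13, a gene of the tail bud and prostate, was at 0.89 and 1.54 CPM in the controls, 1.38, 1.36 and 1.61 CPM in Zzz3 auxin and 1.66, 1.23 and 1.27 CPM in Yeats2 auxin. Both controls of Hoxc4 lay above every Yeats2 auxin library, whereas Hoxb13 overlapped in all comparisons. Hoxa7 was at 1.18 CPM in either control, 1.46, 0.953 and 0.669 CPM in Zzz3 auxin and 1.51, 0.651 and 1.19 CPM in Yeats2 auxin. Hoxd13, required for digit formation, was at 1.09 and 0.771 CPM in the controls, 1.34, 0.953 and 0.535 CPM in Zzz3 auxin and 0.696, 0.941 and 1.07 CPM in Yeats2 auxin. Hoxa7 and Hoxd13 overlapped in all comparisons, with the shallow Zzz3 auxin replicate 3 lowest or next to lowest. Exons of Hoxa7 share 586 bp with the antisense gene Hoxaas3. The strand setting of the counting is not stated, so reads of such antisense pairs may not be told apart.

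**Figure D2:**
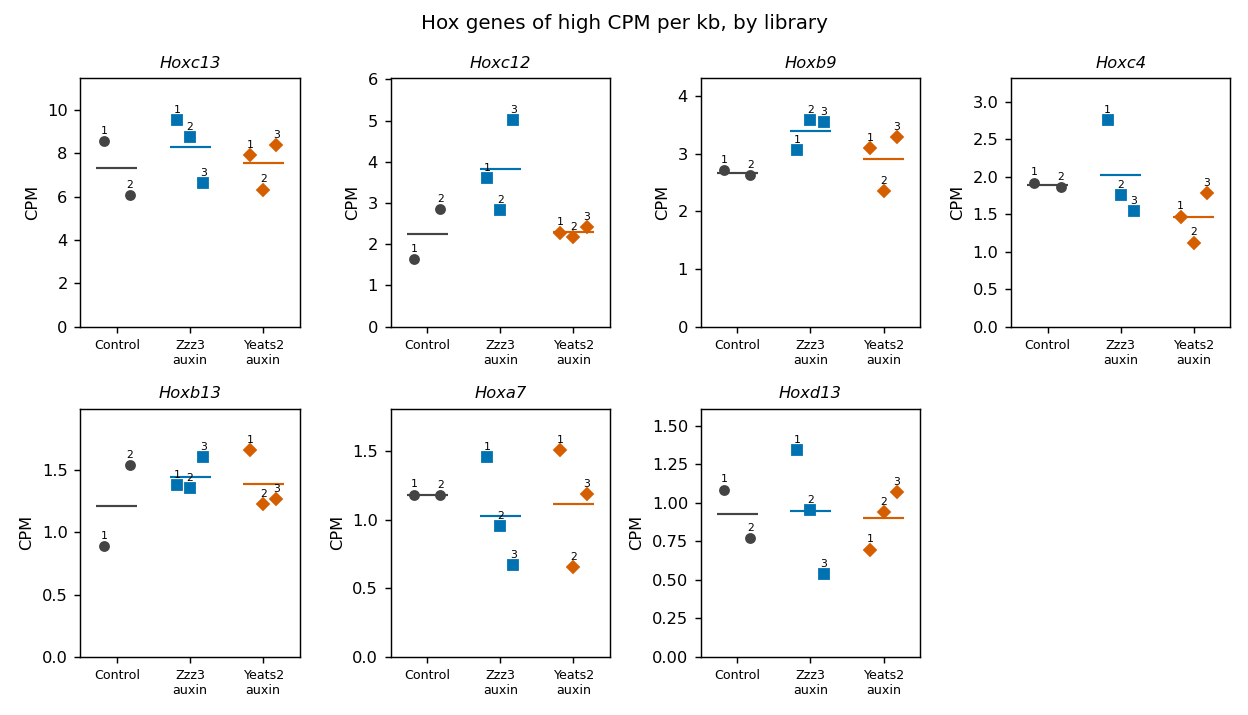
TMM-scaled CPM of 7 Hox genes of high CPM per kb in each library, with the replicate number above each point, a line at the group mean and axes from 0. The groups of most genes overlap, Hoxb9 is lower in both controls than in Zzz3 auxin, and Hoxc4 is higher in both controls than in Yeats2 auxin.

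Hoxc5, Hoxc9, Hoxc10 and Hoxc11, from the middle of the Hoxc cluster, were detected at a few reads per library. Hoxc11 had 9 and 13 reads in the controls, 22, 7 and 4 reads in Zzz3 auxin and 11, 8 and 9 reads in Yeats2 auxin. Hoxc10 had 6 and 10 reads, then 15, 8 and 5, and 14, 8 and 5 in the same order. Zzz3 auxin replicate 1 held the most reads of both. Hoxc9 had 8 and 10 reads in the controls, 9, 9 and 5 reads in Zzz3 auxin and 11, 6 and 3 reads in Yeats2 auxin. Hoxc5 had 12 and 11 reads, then 24, 20 and 9, and 18, 9 and 7. The annotated span of Hoxc5 runs across Hoxc6, Hoxc8, Hoxc9 and part of Hoxc10, and shares 166 bp of exon with Hoxc10, so that reads there may be split or left unassigned.

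Of the 39 genes, 13 passed edgeR's filter on low counts (the 12 above the floor in all groups, and Hoxc9) and 26 did not. The 26 had between 0 and 51 reads over all libraries together, with a median of 7.5. Their reads per library came to 28 and 31 in the controls, 37 to 101 in Zzz3 auxin and 37 to 47 in Yeats2 auxin, and the 101 reads, 3.88 CPM, were those of Zzz3 auxin replicate 1. Every other library was between 1.27 and 2.48 CPM. In the Hoxb cluster no gene between Hoxb1 and Hoxb8 had more than 6 reads in any library. Neighbours could differ widely, as Hoxd13 had 179 reads in all and Hoxd12, which starts 3413 bp beyond its end, had 1 read.

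Hoxd13, Hoxd12 and Hoxd8 are shown here by the 300 bases around their start, 250 before and 50 after (RefSeq, GRCm38.p6, plus strand), because the first and the second are neighbours with 179 reads and 1 read and the third gave the largest difference between groups. Each CG dinucleotide is in capitals.
Hoxd13, chr2:74667975-74668274: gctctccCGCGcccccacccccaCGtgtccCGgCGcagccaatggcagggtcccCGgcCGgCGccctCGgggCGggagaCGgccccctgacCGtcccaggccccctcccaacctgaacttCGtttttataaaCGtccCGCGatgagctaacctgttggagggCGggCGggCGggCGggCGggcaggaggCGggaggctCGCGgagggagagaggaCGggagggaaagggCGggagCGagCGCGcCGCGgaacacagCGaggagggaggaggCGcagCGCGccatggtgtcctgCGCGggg
Hoxd12, chr2:74674763-74675062: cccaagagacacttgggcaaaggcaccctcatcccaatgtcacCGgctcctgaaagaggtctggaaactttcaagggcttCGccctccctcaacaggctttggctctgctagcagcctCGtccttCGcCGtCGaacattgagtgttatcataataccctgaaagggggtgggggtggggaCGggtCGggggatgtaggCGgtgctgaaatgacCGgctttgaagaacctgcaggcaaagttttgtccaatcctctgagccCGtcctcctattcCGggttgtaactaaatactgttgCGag
Hoxd8, chr2:74704365-74704664: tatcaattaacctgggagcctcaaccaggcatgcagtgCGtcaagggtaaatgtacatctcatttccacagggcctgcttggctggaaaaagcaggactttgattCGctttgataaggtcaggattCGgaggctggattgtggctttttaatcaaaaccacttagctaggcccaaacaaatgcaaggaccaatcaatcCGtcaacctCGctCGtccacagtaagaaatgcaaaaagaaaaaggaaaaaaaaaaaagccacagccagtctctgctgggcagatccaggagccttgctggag
The windows held 37, 13 and 6 CG dinucleotides, numbers which 5.58%, 37.9% and 56.4% of all 32851 windows reached. Windows were found for 22 of the 39 genes, with a median of 14.5 CG in 24 windows, against 7 in all. The 4 windows of tested genes held 6 to 37 and the 20 of genes not tested 4 to 45, so that the count of CG did not separate them. Hoxc13, Hoxc12 and Hoxb9 had no window in the table used.

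The comparison of Zzz3 auxin with control asked whether loss of ZZZ3 altered Hox RNA levels. None of the 13 tested genes was called by edgeR's quasi-likelihood test, at an adjusted P under 0.05 with Benjamini and Hochberg's method over all 17532 genes tested, against 0.753% of all genes. At an unadjusted P under 0.05 there were 2 of 13 Hox genes, Hoxc12 and Hoxd8, against 21.7% of all genes. DESeq2 called 0 (1 at an unadjusted P under 0.05), against 6.35% of all genes. It gave no adjusted P for Hoxa7, Hoxb13, Hoxc5, Hoxc9, Hoxc10, Hoxc11, Hoxd8 and Hoxd13, so it could not call these genes here. The smallest adjusted P in edgeR was 0.198. Of the 13 genes, 9 had a higher and 4 a lower mean in Zzz3 auxin, with a median log2 fold change (FC) of 0.11 and 0.01 over all genes. The libraries of both groups did not overlap for Hoxb9, Hoxc5, Hoxc9 and Hoxd8, which is 4 of 13, against 35.8% of all genes. Hoxb9, Hoxc5 and Hoxd8 were higher in Zzz3 auxin, whereas Hoxc9 was lower, at 0.345, 0.33 and 0.335 CPM against 0.395 and 0.454 CPM in the controls.

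Among the more abundant genes, the log2 FC of Zzz3 auxin against control was 0.19 (SE 0.23, adjusted P = 0.668) for Hoxc13 and 0.35 (SE 0.23, adjusted P = 0.418) for Hoxb9. It was 0.11 (SE 0.32) for Hoxc4, 0.23 (SE 0.32) for Hoxb13, -0.16 (SE 0.42) for Hoxa7, 0.08 (SE 0.41) for Hoxd13 and -0.13 (SE 0.57) for Hoxc11, with adjusted P between 0.715 and 0.937 in edgeR. Hoxc12 had a log2 FC of 0.74 (SE 0.31, adjusted P = 0.198 in edgeR), which came to 0.32 after removal of the trends on GC content and length, to 0.39 without control replicate 1 and to 1.21 without control replicate 2. These comparisons were wide. The median width of the 95% confidence interval (CI) of a log2 FC was 1.79 for the 13 genes and 0.965 over all genes, and the CI reached a 2-fold difference in 7 of the 13.

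The comparison of Yeats2 auxin with control asked the same of YEATS2. None of the 13 genes was called by edgeR, against 0.445% of all genes, and none was at an unadjusted P under 0.05, against 14.6% of all genes. DESeq2 also called 0 (0 at an unadjusted P under 0.05), against 2.48% of all genes. Here too it gave no adjusted P for Hoxa7, Hoxb13, Hoxc5, Hoxc9, Hoxc10, Hoxc11, Hoxd8 and Hoxd13, so it could not call them. There were 4 genes with a higher and 9 with a lower mean, the median log2 FC was -0.11 against -0.01 over all genes, and the values ranged from -0.73 for Hoxc9 to 0.18 for Hoxb13. For 2 genes, Hoxc4 and Hoxc11, the libraries of both groups did not overlap, against 40.3% of all genes. Hoxc4 had a log2 FC of -0.38 (SE 0.32, adjusted P = 0.615 in edgeR) and Hoxc11 of -0.54 (SE 0.57, adjusted P = 0.704).

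Hoxc13 was at 7.33 ± 1.77 CPM (SD, n = 2) in the controls and 7.55 ± 1.08 CPM (SD, n = 3) in Yeats2 auxin, a log2 FC of 0.04 with a 95% CI of -0.46 to 0.54. The log2 FC was 0.12 (SE 0.23) for Hoxb9, 0.02 (SE 0.31) for Hoxc12, 0.18 (SE 0.32) for Hoxb13, -0.09 (SE 0.41) for Hoxa7 and -0.04 (SE 0.41) for Hoxd13. The adjusted P of these 6 genes was between 0.822 and 0.981 in edgeR. The median CI was 1.78 wide and reached a 2-fold difference in 6 of the 13 genes, which for these genes leaves a difference of that size within the interval. Both comparisons used the same 2 control libraries.

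**Figure D3:**
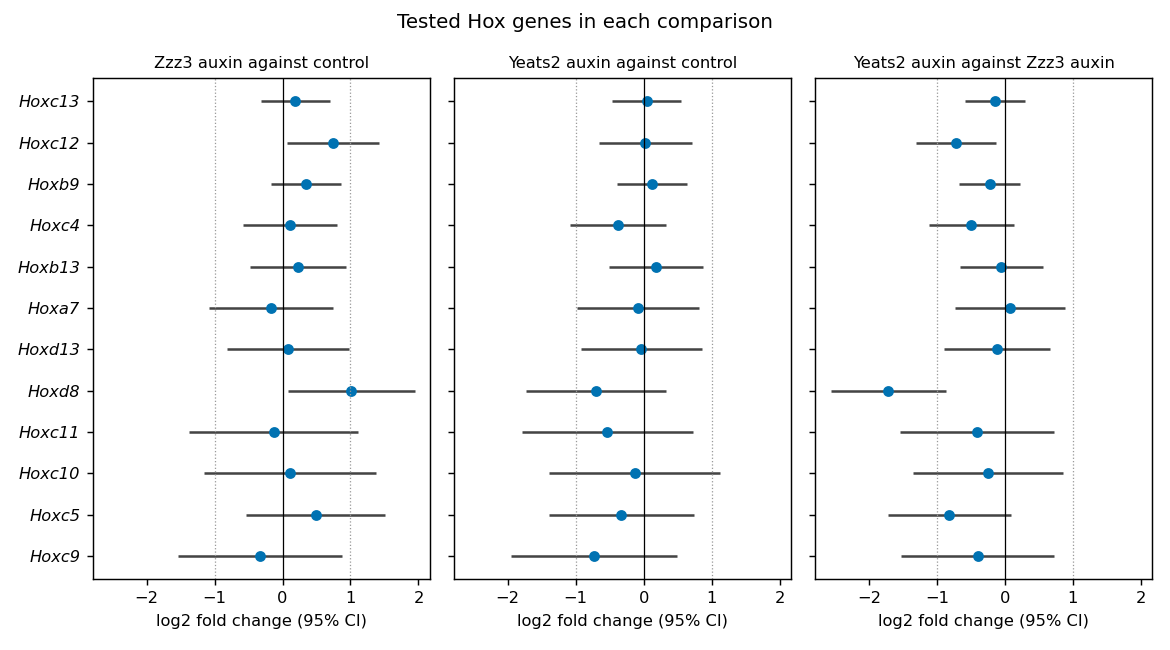
Log2 FC (points) with 95% CI (lines) of 12 tested Hox genes in the 3 comparisons, ordered from high to low CPM per kb, with dotted lines at a 2-fold difference. Most intervals include 0, and those that do not are Hoxc12 and Hoxd8 in Zzz3 auxin against control and in Yeats2 auxin against Zzz3 auxin.

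The direct comparison asked whether the Hox genes differed between Yeats2 auxin and Zzz3 auxin. No gene of the 17532 was called by edgeR (0% of all, with 1095, or 6.25%, at an unadjusted P under 0.05) and DESeq2 called 3, which is 0.0171%, none of them a Hox gene. Hoxd8 and Hoxc12 were at an unadjusted P under 0.05 by both. The median log2 FC of the 13 genes was -0.24 against -0.01 over all genes, and 12 had a lower mean in Yeats2 auxin. Hoxd8 and Hoxc12 did not overlap between the groups, against 11.1% of all genes. Hoxc12 had a log2 FC of -0.72 (SE 0.27, adjusted P = 0.779 in edgeR). For Hoxc13, Hoxb9, Hoxc4, Hoxb13, Hoxa7, Hoxd13 and Hoxc11 the log2 FC ran from -0.49 (Hoxc4) to 0.08 (Hoxa7), with adjusted P from 0.779 to 0.974.

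Hoxd8 showed the largest difference of the tested Hox genes. It lies at chr2:74704615-74707933, in the middle of the Hoxd cluster, and its promoter window is the poorest in CG of those printed above. Hoxd8 had 8 and 15 reads (0.395 and 0.68 CPM) in the controls, 34, 22 and 18 reads (1.3, 0.806 and 1.2 CPM) in Zzz3 auxin and 8, 7 and 11 reads (0.309, 0.253 and 0.435 CPM) in Yeats2 auxin. Every Zzz3 auxin library was above every other library, while the controls and Yeats2 auxin overlapped. The log2 FC was -1.71 (SE 0.39) for Yeats2 auxin against Zzz3 auxin, with an unadjusted P = 0.00095 and an adjusted P = 0.779 in edgeR, and 0.388 in DESeq2. Against control it was 1.01 (SE 0.43, adjusted P = 0.2 in edgeR) for Zzz3 auxin and -0.7 (SE 0.47, adjusted P = 0.515) for Yeats2 auxin. Without a filter on low counts, when 33007 genes were tested and 0.354% of them called, Hoxd8 was called in the direct comparison (log2 FC -1.7, adjusted P = 0.0438), but the adjusted P was 0.288 in the same test without Zzz3 auxin replicate 1 and 0.0746 without replicate 3.

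Some genes next to Hoxd8 and in the centre of the Hoxc cluster had their highest counts in Zzz3 auxin as well, at levels under the filter. Hoxd9, a gene of trunk and limb patterning, had 4 and 3 reads in the controls, 12, 10 and 2 reads in Zzz3 auxin and 2, 2 and 1 reads in Yeats2 auxin. Hoxd4 had 1 and 0 reads, then 7, 0 and 3, and 1, 1 and 0. Neither was high in all Zzz3 auxin libraries, and in CPM both genes overlapped between Zzz3 auxin and control. Hoxc6 had 1 and 2 reads in the controls, 28, 5 and 5 reads in Zzz3 auxin and 5, 3 and 2 reads in Yeats2 auxin. Hoxc8 had 3 and 1 reads, then 18, 7 and 5, and 4, 3 and 5. Both genes act in the thoracic region. In CPM, Zzz3 auxin was above control for Hoxc6 and Hoxc8 in all libraries, by most in replicate 1. There the 95% exact Poisson interval of the 28 Hoxc6 reads was 18.6 to 40.5, which covers counting error only. Hoxc6 and Hoxc8 were described because only in Zzz3 auxin did each library exceed 3 reads, so their separation follows in part from that choice. Of all tested genes, 35.8% did not overlap between Zzz3 auxin and control.

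Without the filter, Hoxc6 was called in Zzz3 auxin against control (log2 FC 2.86, SE 0.88, adjusted P = 0.029 in edgeR), the 1 Hox gene of 37 with reads, against 4.67% of all 33007 genes. Without Zzz3 auxin replicate 1 the log2 FC was 1.73 (SE 1.15) and the adjusted P was 0.602. The log2 FC was 2.14 for Hoxc8 (adjusted P = 0.158) and 1.01 for Hoxd9 (adjusted P = 0.684). In Yeats2 auxin against control no Hox gene was called without the filter, against 1.68% of all genes. Zzz3 auxin replicate 1 also had the highest summed level of the fibroblast markers (10.2 CPM, other libraries 5.33 to 7.4), of the 9 mesoderm markers (23.2 CPM, others 12.7 to 18.4) and of the 8 neuroectoderm markers (123 CPM, others 70.9 to 121), whose part in these counts was not tested. Within the mesoderm sum, the marker T alone was at 14 CPM in that library and at 5.86 to 7.2 CPM in the others, so that sum does not show a rise of the mesoderm markers as a class. In bulk RNA, a few cells with much Hox RNA and many cells with little cannot be told apart.

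**Figure D4:**
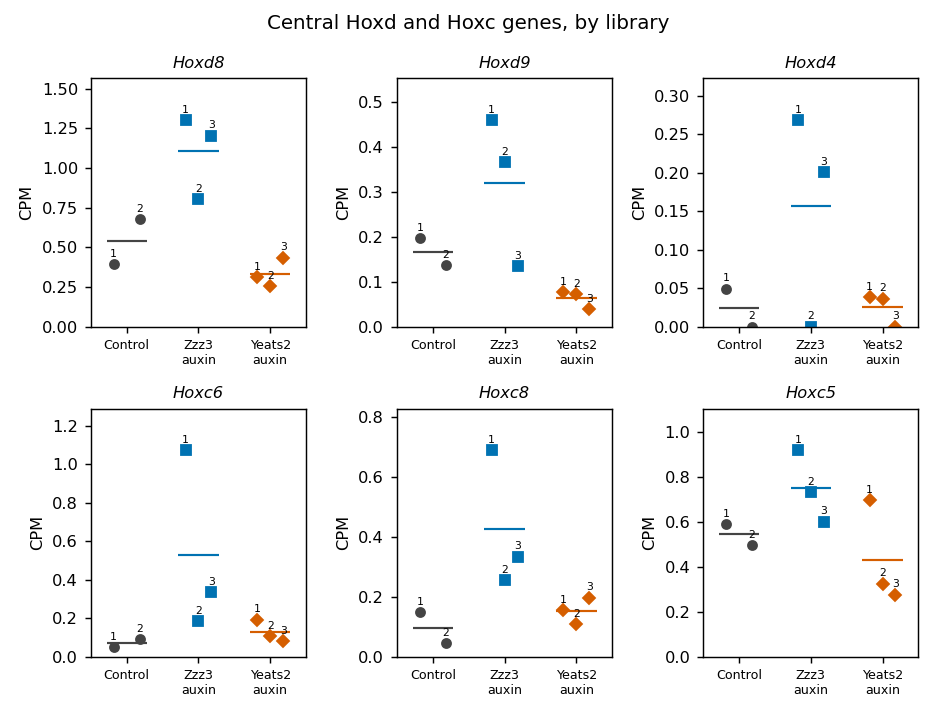
TMM-scaled CPM of Hoxd8, Hoxd9, Hoxd4, Hoxc6, Hoxc8 and Hoxc5 in each library, with the replicate number above each point, a line at the group mean and axes from 0. Hoxd8 is higher in all 3 Zzz3 auxin libraries than elsewhere, whereas the mean of Zzz3 auxin for Hoxc6 and Hoxc8 rests mainly on replicate 1.

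The gene with the most reads inside the clusters was not a Hox gene, and it lies in the long interval between Hoxb13 and Hoxb9. Apart from the 39 genes, 46 annotated genes overlap the clusters, of which 2 passed the filter, 21 had 0 reads in all libraries, and the 44 that did not pass had at most 10 reads in a library. The 2 that passed are Gm53, a long noncoding RNA gene at chr11:96251105-96264868, and Mir196a-1 at chr11:96265164-96265265, the hairpin gene of a microRNA that targets Hox mRNAs, which starts 295 bp after Gm53. Gm53 was at 24.7 and 22.5 CPM in the controls, 27, 33.2 and 33.5 CPM in Zzz3 auxin and 31.8, 28.3 and 30 CPM in Yeats2 auxin. Mir196a-1 had 40 and 47 reads (1.97 and 2.13 CPM) in the controls, 63, 91 and 40 reads (2.42, 3.33 and 2.68 CPM) in Zzz3 auxin and 119, 105 and 98 reads (4.6, 3.8 and 3.88 CPM) in Yeats2 auxin. For both, each control lay below every auxin library, and for Mir196a-1 Yeats2 auxin was also above Zzz3 auxin throughout. Such separation is common, as 35.8% (Zzz3 auxin) and 40.3% (Yeats2 auxin) of all tested genes did not overlap with control. Between the auxin groups 11.1% did not.

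For Mir196a-1 the log2 FC of Yeats2 auxin against control was 0.99 (SE 0.24) with an adjusted P = 0.111 in edgeR, which does not pass. It passed with DESeq2 (adjusted P = 0.029), without a filter (0.0449), with only the compared groups in the fit (0.0384) and with the GC and length trend removed (0.0431). It did not pass with median-of-ratios size factors (0.108), a mean of at least 1 CPM (0.0987), the replicate number as a block (0.171) or any library left out (0.0693 to 0.654). Zzz3 auxin against control gave 0.46 (SE 0.24, adjusted P = 0.3 in edgeR) and the direct comparison 0.54 (SE 0.2, adjusted P = 0.779). Gm53 had a log2 FC of 0.4 (SE 0.14, adjusted P = 0.146) in Zzz3 auxin and 0.35 (SE 0.14, adjusted P = 0.297) in Yeats2 auxin against control. The Hox genes on either side had smaller log2 FC, 0.23 and 0.18 for Hoxb13 and 0.35 and 0.12 for Hoxb9. Ttll6, a tubulin glutamylase gene and the first protein-coding gene beyond Hoxb13, was at 7.01 and 7.39 CPM in the controls, 11.1, 11.4 and 9.7 CPM in Zzz3 auxin and 12.3, 9.08 and 11.4 CPM in Yeats2 auxin, a log2 FC of 0.58 (SE 0.19, adjusted P = 0.121) and 0.6 (SE 0.19, adjusted P = 0.18).

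**Figure D5:**
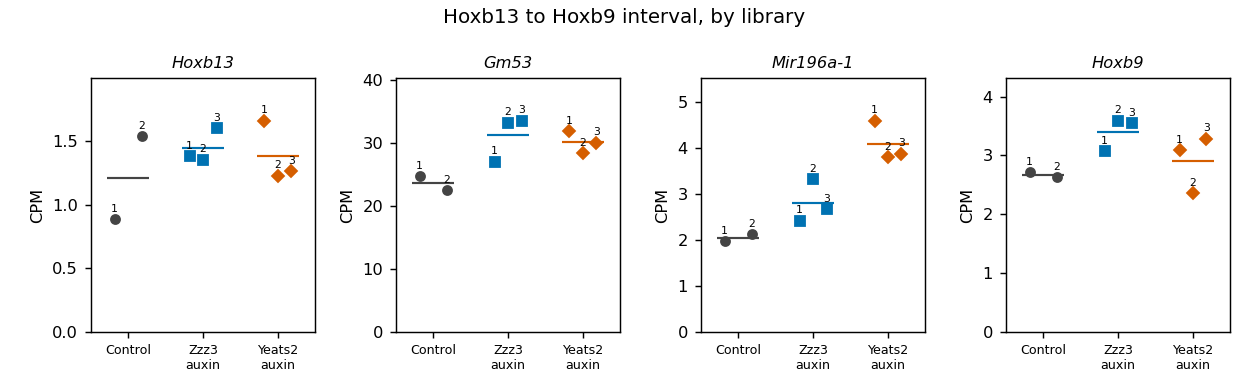
TMM-scaled CPM of Hoxb13, Gm53, Mir196a-1 and Hoxb9 in each library, in their order along the chromosome, with the replicate number above each point, a line at the group mean and axes from 0. Gm53 and Mir196a-1 are lower in both controls than in all 6 auxin libraries, and Mir196a-1 is highest in Yeats2 auxin. Of all tested genes, 35.8% (Zzz3 auxin) and 40.3% (Yeats2 auxin) do not overlap with control.

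The Hox clusters hold microRNA genes of the miR-196 and miR-10 families, besides Mir615 and Gm44463, which had 0 reads. The mature sequences of the 5' arms of both families (RefSeq, GRCm38.p6) are shown because Mir196a-1 was the 1 microRNA gene with reads in every library. The seed, bases 2 to 8, is in capitals and is shared within each family. These libraries measure reads over the hairpin gene, not mature microRNAs.
miR-196a-5p: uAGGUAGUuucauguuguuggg
miR-196b-5p: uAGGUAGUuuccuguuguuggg
miR-10a-5p: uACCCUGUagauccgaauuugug
miR-10b-5p: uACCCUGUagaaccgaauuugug
The mature miR-196a-5p of Mir196a-1 lies at chr11:96265187-96265208 on the plus strand, and Mir196a-2 in the Hoxc cluster encodes the same mature sequence. miR-196a-5p and miR-196b-5p differ by A12C, counted from 1 at the 5' end, and have the same seed. Mir196a-1 had 603 reads over the 8 libraries, Mir196a-2 had 1, and Mir196b, Mir10a and Mir10b had 0.

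The site opposite the miR-196 seed, ACTACCT in DNA letters on the strand of the mRNA, occurred in the longest annotated 3' untranslated region (UTR) of 9 of the 39 Hox genes (23.1%) and of 6.11% of 20963 protein-coding genes, with median UTR lengths of 966 and 962 bases. Among the 9 Hox genes were Hoxa7 (4 sites), which was tested, and, not tested, Hoxa4, Hoxa5, Hoxa9, Hoxb1, Hoxb6, Hoxb7 and Hoxc8. Hoxb8, known as an mRNA that miR-196a cleaves, lacks the exact seed match because 1 base pairs as G with U, yet all 22 bases pair, 21 of them as Watson-Crick pairs. Its site is shown with the Hoxa7 site of the most pairs (17 of 22), with the bases opposite the seed in capitals.
Hoxb8, chr11:96284888-96284909, plus strand: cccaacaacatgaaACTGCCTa
Hoxa7, chr6:52215210-52215231, minus strand: actactagccctaaACTACCTa
Hoxb8 had 2 reads in Zzz3 auxin replicate 1 and 0 in the other 7 libraries, so no difference in it could be detected at this depth. The log2 FC of Hoxa7 in Yeats2 auxin against control, where Mir196a-1 had its highest counts, was -0.09 (95% CI -0.99 to 0.81). A seed match is a description of the sequence, not of binding.

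At the other borders of the clusters, Skap2 (chr6), Calcoco1 and Smug1 (chr15) and Mtx2 (chr2) were at 15.7 to 114 CPM, and none was called. Their log2 FC against control ran from -0.16 for Mtx2 to 0.6 for Calcoco1, both in Zzz3 auxin, with the smallest adjusted P at 0.129 (Calcoco1, edgeR). Other borders were near silent. Evx1, a homeobox gene beside Hoxa13, had at most 7 reads in a library, Evx2 beside Hoxd13 had at most 1 and Skap1, beyond Hoxb1, at most 3. The noncoding genes Hotair and Hoxb3os, from the Hoxc and Hoxb clusters, had 1 and 4 reads in all.

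Genes that regulate the clusters or work with Hox proteins were expressed, and none of their 6 lists held a called gene in any of the 3 comparisons. Calls were rare among all genes too, at 0.753% for Zzz3 auxin and 0.445% for Yeats2 auxin relative to the controls. Between the auxin groups the share was 0%. In lists this short, the absence of calls therefore says little. All 20 Polycomb genes were tested, with Mtf2 (873 to 1230 CPM), Suz12 (394 to 754 CPM) and Eed (228 to 377 CPM) the most abundant. Suz12, a core subunit of Polycomb repressive complex 2, had a log2 FC of -0.45 (SE 0.17, adjusted P = 0.154 in edgeR) in Zzz3 auxin and -0.2 (SE 0.17, adjusted P = 0.614) in Yeats2 auxin. The median log2 FC of the list against control was -0.07 and -0.05, against 0.01 and -0.01 over all genes. All 13 Trithorax genes were tested, led by Wdr5 (471 to 572 CPM) and Ash2l (430 to 576 CPM), which are shared subunits of the histone H3 lysine methyltransferase complexes, and their medians were 0.01 and 0.02.

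Of the 20 retinoic acid pathway genes, 15 were tested, and their median log2 FC against control was 0.29 in Zzz3 auxin and 0.21 in Yeats2 auxin. Ncoa3, a coactivator of nuclear receptors, was the most abundant at 288 to 352 CPM. Rarg, a nuclear receptor for retinoic acid and the next in abundance, had the smallest adjusted P of all lists, with a log2 FC of 0.77 (SE 0.17, adjusted P = 0.0651 in edgeR) in Zzz3 auxin and 0.47 (SE 0.17, adjusted P = 0.246) in Yeats2 auxin. All 11 TALE genes were tested, with Tgif1, Pknox1 and Pbx2 the most abundant at 30.1 to 204 CPM, and their median log2 FC was 0.03 and -0.07. Of the 15 ParaHox and related homeobox genes, 5 were tested. Cdx1, a direct activator of Hox genes, was at 10.7 to 19.7 CPM, with a log2 FC of -0.52 (SE 0.18, adjusted P = 0.14 in edgeR) in Zzz3 auxin and -0.01 (SE 0.18, adjusted P = 0.993) in Yeats2 auxin. Of the 15 genes of posterior patterning, 11 were tested, with medians of -0.21 and -0.1. In Zzz3 auxin, 7 of 20 Polycomb, 4 of 15 retinoic acid and 3 of 11 posterior patterning genes had an unadjusted P under 0.05 in edgeR. So did 2 of 13 Trithorax, 1 of 11 TALE and 1 of 5 ParaHox and related genes, against 21.7% of all genes. For Yeats2 auxin these counts were 2, 1, 2, 0, 1 and 0 in the same order, against 14.6% of all genes.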

How the data were processed

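Total RNA of 8 libraries was sequenced, and the deposited values are raw counts per gene, with 1 file for each library. Per the study's methods, reads were trimmed, cleared of ribosomal RNA, aligned to mm10 by the authors with STAR 2.5.3a and, where uniquely aligned, counted with HTSeq 0.6.1p1 in union mode, with ambiguous reads left unassigned. The labels name poly(A) RNA, whereas the protocol describes ribosomal RNA depletion. The strand option is not given in the sources used here. The 5 tally rows below the 55401 genes of a file were dropped. GENCODE annotation of GRCm38 named 55141 genes, and 260 had no match.

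Counts were fitted in R 4.3.3 with edgeR 4.0.16 (filterByExpr, which kept 17532 genes, TMM, robust quasi-likelihood test, all 8 libraries with a mean per group). Two-sided P values were adjusted by Benjamini and Hochberg over the genes tested in a comparison, with calls at an adjusted P under 0.05. Alternatives were DESeq2 1.42.0, which the study also used (version 1.16.1), no filter, median-of-ratios size factors, a filter at a mean of 1 CPM, only the compared groups, the replicate number as a block, a correction for GC content and length (lowess span 0.3), more than 10 reads as the floor, and leaving out each library. No filter combined with leaving out each Zzz3 auxin library was chosen after seeing the data. Full statistics were given for the 10 tested Hox genes of highest mean CPM per kb, except for 1 that is not reported here. Neighbouring genes were named where they passed the filter, and others in the text were chosen after their values were seen. Listed regulators were named from the 3 of highest CPM in a list. The Hox genes and the gene lists were chosen with earlier results of these data known. Tested on simulated data with 200 genes changed in fits of 17167 to 17191 genes, the pipeline recovered 53.4% (Zzz3 auxin) and 60.6% (Yeats2 auxin) of genes with a log2 FC of 1 and 81.8% and 84.7% of those with a log2 FC of 2, while 7.01% and 4.97% of its calls were false. The changed genes were drawn from all tested genes, so these shares do not give the recovery at the low counts of the Hox genes, whose CIs were wider. Sequences came from RefSeq and GENCODE, and figures were drawn with matplotlib 3.10.9.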

Additional observations from a re-analysis of the deposited data

How the results depend on the processing

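The number of Hox genes called stayed at 0 in all 3 comparisons under DESeq2, other size factors, a mean of at least 1 CPM, only the compared groups, the GC and length correction and leaving out any library. Against control DESeq2 gave no adjusted P for Hoxa7, Hoxb13, Hoxc5, Hoxc9, Hoxc10, Hoxc11, Hoxd8 and Hoxd13, so its 0 does not cover them. Without a filter on low counts the number of Hox genes called was 1 in Zzz3 auxin against control (Hoxc6) and 1 in Yeats2 auxin against Zzz3 auxin (Hoxd8). With this and each Zzz3 auxin library left out in turn, it was 0 to 1 and 0 to 2 in these comparisons, 0 in both without replicate 1. With more than 10 reads as the floor, 9 Hox genes were detected in the controls and 7 in Zzz3 auxin, against 14 and 15 with more than 3, and at a mean of at least 1 CPM 7 genes passed in place of 13. The labels do not say whether libraries of the same replicate number belong together. Deviations of libraries with the same number correlated by -0.172 to 0.196, and of those with different numbers by -0.214 to 0.214. The deviations of the 2 controls mirror each other, so these correlations cannot settle a pairing. The replicate block left 0 Hox genes called, with a log2 FC of Hoxd8 of -1.73 in the direct comparison. Under it, calls over all genes went from 132 to 42 in Zzz3 auxin and from 78 to 32 in Yeats2 auxin against control. Over all genes, calls ranged from 0 (without either control, or only the compared groups) to 1542 (no filter) in Zzz3 auxin and from 0 (without control replicate 1 or Yeats2 auxin replicate 3) to 553 (no filter) in Yeats2 auxin, and the cause was not tested.

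None of the named Hox genes was called by the planned test, and of 491 values of log2 FC under the alternatives 32 changed sign. Under the replicate block Hoxc12 and Hoxd13 came to -0.095 and 0.057 in Yeats2 auxin against control. Under the GC and length correction Hoxc13, Hoxc12 and Hoxd13 came to -0.098, -0.17 and 0.0002 in Yeats2 auxin against control and Hoxc4 to -0.028 in Zzz3 auxin against control. With a library left out, the log2 FC of Zzz3 auxin against control ranged from -0.036 to 0.46 for Hoxc13, -0.17 to 0.27 for Hoxc4, -0.11 to 0.69 for Hoxb13, -0.48 to 0.0385 for Hoxa7, -0.23 to 0.33 for Hoxd13 and -0.96 to 0.21 for Hoxc11. For Yeats2 auxin against control it ranged from -0.18 to 0.31 for Hoxc13, -0.32 to 0.49 for Hoxc12, -0.15 to 0.64 for Hoxb13, -0.36 to 0.19 for Hoxa7 and -0.26 to 0.22 for Hoxd13. For Yeats2 auxin against Zzz3 auxin it ranged from -0.204 to 0.0284 for Hoxb13, -0.202 to 0.405 for Hoxa7, -0.34 to 0.21 for Hoxd13 and -0.74 to 0.44 for Hoxc11. The cause was not tested.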

Other observations

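Halr1, a long noncoding RNA gene (chr6:52102949-52113684) in the neighbourhood of the Hoxa cluster, lies outside the clusters as defined here and was looked at after its values were seen. It was at 7.8 and 5.44 CPM in the controls, 2.65, 6.27 and 3.55 CPM in Zzz3 auxin and 8.01, 8.1 and 6.65 CPM in Yeats2 auxin. All Yeats2 auxin libraries were above all Zzz3 auxin libraries (11.1% of all tested genes do not overlap between these groups), whereas the controls overlapped with either. The log2 FC was 0.86 (SE 0.28, adjusted P = 0.779 in edgeR) for Yeats2 auxin against Zzz3 auxin and -0.66 (SE 0.32, adjusted P = 0.256) for Zzz3 auxin against control. Without a filter on low counts the direct comparison passed (adjusted P = 0.0297), but not when Zzz3 auxin replicate 1 (0.48) or 3 (0.0781) was also left out. It did not pass with DESeq2 (0.515) or under any other alternative with the filter (0.144 to 0.945 in edgeR). Zzz3 auxin against control passed without Zzz3 auxin replicate 2 (0.0454).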
